A study of Mus musculus with 8 samples.

Results

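Complex I of the respiratory chain, NADH:ubiquinone oxidoreductase, was described through 57 genes of the quadriceps muscle of mice with and without a head and neck carcinoma. The genes were taken by name from a table of 53819 gene symbols: every symbol that starts with Nduf, plus Ecsit, Acad9, Foxred1, Nubpl, Tmem126b and Timmdc1. Of 60 such symbols, 57 had a summed estimated count of at least 80 over the 8 libraries. The member just above that minimum was the pseudogene Ndufab1-ps with a summed count of 125.9, and the symbol just below it was the paralog Ndufs6b with 46.0. The members comprised 37 nuclear subunit genes, 14 assembly factor genes, 2 genes that carry the family name but whose products are placed elsewhere (Ndufa4 and Ndufa4l2) and 4 paralogs or pseudogenes (Ndufb4c, Ndufab1-ps, Ndufa12-ps and Ndufs5-ps). All 57 passed the filter on low counts and were tested.

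The mice were wild-type C57BL/6J animals, 8 weeks old at the start, and their sex was not given in the sources used here. In the tumor group, 4 mice received, by subcutaneous injection behind the neck, 500000 cells of the squamous carcinoma line B0092 in 200 uL of phosphate-buffered saline. The 4 control mice received the saline vehicle alone, although their labels also name the cell line. Muscle was collected on day 36, at a weight loss that the study's design text puts at about 10% without naming the group, and 1 library of polyadenylated RNA was sequenced per mouse. The libraries held 28436254 to 36139478 counts, and Myh4, the myosin of the fastest muscle fibres, lay between 37907 and 89518 counts per 1000000 (CPM) in every library. Krt5, Krt14, Krt6a and Dsg3, which mark squamous cells, were at 0 counts in all 8 libraries, while the fifth marker of that list, Trp63, was higher in tumor mice (3.01-fold).

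Complex I takes electrons from NADH, passes them along a flavin and a chain of iron-sulfur clusters to ubiquinone, and pumps protons out of the mitochondrial matrix. Its N module binds NADH, its Q module hands the electrons to ubiquinone, and its membrane arm, with a proximal and a distal part, holds the pumps. A set of core subunits, shared with bacteria, does the catalysis, and the remaining accessory subunits surround it. Assembly factors build the parts and leave before the enzyme is complete. Skeletal muscle is rich in the enzyme, above all in its oxidative fibres.

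Most subunit genes and some assembly factor genes were lower in tumor mice. Of the 37 subunit genes, 26 fell at an adjusted p under 0.05 and 0 rose, in the quasi-likelihood test of edgeR with Benjamini-Hochberg adjustment over all 14070 tested genes. Of all tested genes, 8.73% fell and 11.0% rose, which is 19.8% called in either direction. The median log2 fold change of the subunit genes, tumor over control, was -0.77, which is a 1.70-fold lower level, against 0.0029 over all tested genes. Of the 14 assembly factor genes, 5 fell and 0 rose, and their median was -0.42. The difference between subunits and assembly factors was not tested. No gene of either class rose by DESeq2 or limma-voom, or at an unadjusted p under 0.05 in edgeR. A fall in tissue RNA can come from fewer cells or fibres that carry a transcript or from less of it in each, and these cannot be told apart in bulk muscle.

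**Figure D1:**
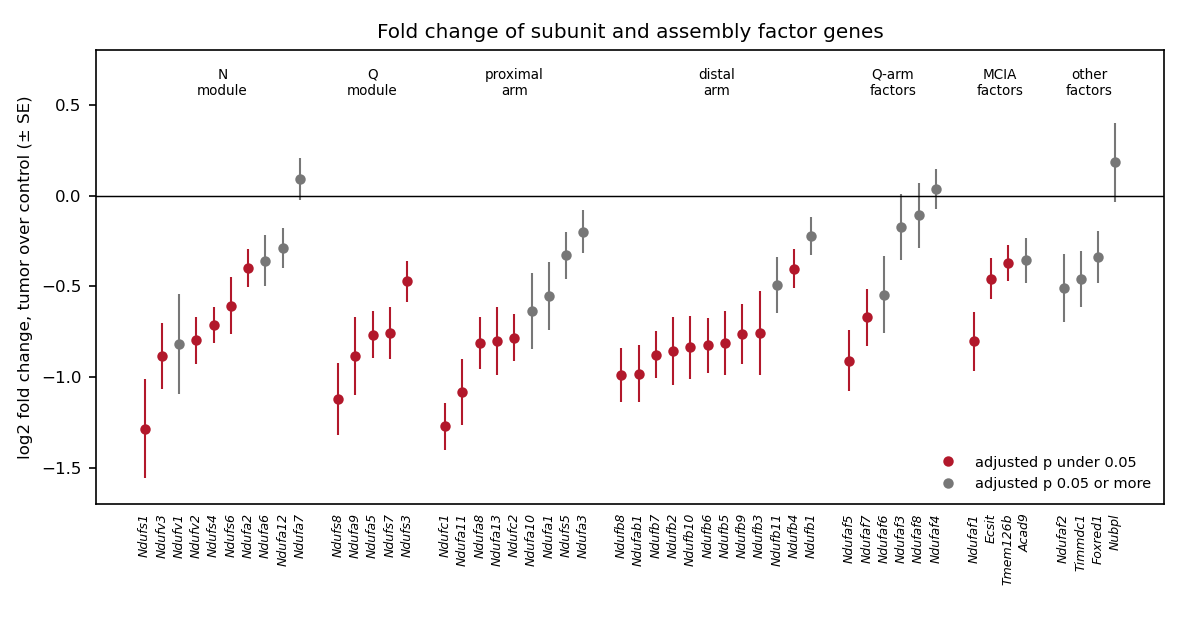
The vertical axis gives the log2 fold change of each gene drawn (1 subunit gene is not shown), tumor over control, with its standard error, and genes are grouped along the horizontal axis by the part of the enzyme they belong to or help to build. Red points passed an adjusted p of 0.05; the subunit genes drawn lie below 0, from -1.28 for Ndufs1 to -0.20 for Ndufa3, except Ndufa7 at 0.09.

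The sign was shared by nearly all members. Among the subunit genes 36 of 37 had a negative log2 fold change, and in 28 of them all 4 tumor values lay below all 4 control values, as was true of 11.5% of all tested genes. Among the assembly factors 12 of 14 were negative and 7 of 14 had all tumor values below the controls. The counts that passed the test depended on single libraries: 16 subunit genes fell without tumor library 3, where 3.36% of all genes fell, and 31 without tumor library 2, where 10.1% did. For the assembly factors, leaving out control library 1 gave 2 (3.35% of all tested genes fell there) and control library 2 gave 3 (4.28%). Leaving out tumor library 3 gave 3 (3.36%) and tumor library 1 gave 8 (8.99%). The subunit median stayed between -0.87 and -0.66 in these fits. The adjusted p of 16 subunit genes, Ndufa5, Ndufa8, Ndufa11, Ndufab1, Ndufb6, Ndufb7, Ndufb8, Ndufb10, Ndufc1, Ndufc2, Ndufs1, Ndufs4, Ndufs7, Ndufs8, Ndufv2 and Ndufv3, stayed under 0.05 whichever library was left out, and that of 2 assembly factors, Ndufaf1 and Ndufaf5, did too.

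**Figure D2:**
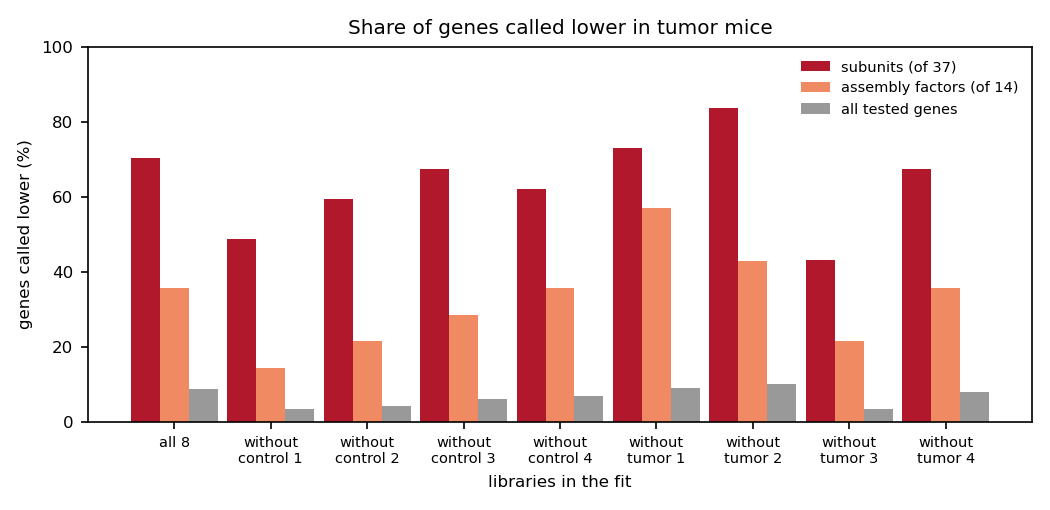
Bars give the percentage of genes called lower in tumor mice with all 8 libraries and with each library left out: red for the 37 subunits, orange for the 14 assembly factors and grey for all tested genes. The bar of the subunits is the tallest in every fit, and the numbers of subunits run from 16 without tumor library 3 to 31 without tumor library 2.

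Promoter windows show letters that some members share. RefSeq windows of build GRCm38.p6, from 250 bases before to 50 after the annotated start of transcription, were matched by symbol for 46 of the 57 members and searched on both strands for letters of 4 factors known to act on respiratory genes. The letters AAGATGGCG, a form of the YY1 motif, were found in 7 of these 46 genes (15.2%), in 3.51% of 10342 tested genes with a window and in 1.64% of all 27025 genes with one. In all 7 genes they lay on the coding strand 10 to 35 bases after the start. They contain ATG, which is the annotated start codon in 6 of the 7, all but Ndufaf8. Of the 7 genes 6 fell, as did 32 of all 57 members and 26 of the 37 subunits, with or without a window. Of all tested genes 8.73% fell, and a link of the letters to the fall was not tested. The short stretches around the letters are shown for all 7 genes, called or not, and include those of Ndufc1 and Ndufs4, which had the smallest p of their modules. Capitals mark the motif letters, read 5′ to 3′ on the coding strand.
Ndufc1: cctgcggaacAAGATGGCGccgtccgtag
Ndufs4: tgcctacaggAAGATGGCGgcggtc
Ndufs6: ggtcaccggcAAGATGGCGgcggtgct
Ndufs7: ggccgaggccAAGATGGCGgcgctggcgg
Ndufa9: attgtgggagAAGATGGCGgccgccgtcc
Tmem126b: gtgaggcgctAAGATGGCGgcgtcccagc
Ndufaf8: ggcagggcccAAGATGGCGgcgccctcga

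These stretches lie at chr3:51408915-51408943 (minus strand) for Ndufc1, chr13:114388045-114388069 (minus) for Ndufs4, chr13:73328433-73328459 (minus) for Ndufs6, chr10:80249463-80249491 (plus) for Ndufs7, chr6:126849097-126849125 (minus) for Ndufa9, chr7:90475960-90475988 (minus) for Tmem126b and chr11:120098934-120098962 (plus) for Ndufaf8. The change of Yy1 itself was 0.25 ± 0.16 on the log2 scale (adjusted p = 0.284, edgeR). A match is a description of the letters and not evidence of binding.

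The letters GCGCATGCG, from the motif of NRF1, were present in Ndufa11, Ndufa8, Ndufaf4 and Ndufaf5, which is 4 of 46 members (8.70%) against 3.92% of tested genes with a window. Nrf1 was at 0.47 ± 0.15 on the log2 scale (adjusted p = 0.0586, edgeR; 0.0182 without tumor library 1), and overlapping matches on both strands were counted as 1 gene. CCGGAAGT, a core of ETS factors such as GABP, was found in Ndufs3 and Timmdc1 (4.35% of members against 8.87% of tested genes). TCAAGGTCA, a motif of the estrogen-related receptors, was in 0 of the 46 windows and in 0.309% of tested genes, which says only that these letters are not in these windows. Of the 4 members with the NRF1 letters 3 were called lower, Ndufa11, Ndufa8 and Ndufaf5, as were 32 of all 57 members and 8.73% of all tested genes. The 250 bases before the start are shown for Ndufa11, which fell 2.12-fold (adjusted p = 0.0058, edgeR). They are also shown for Ndufaf4, the 1 not called, with a log2 fold change of 0.04 and the same NRF1 letters. Capitals mark those letters and their overlapping match on the other strand. Ndufa11 lies at chr17:56717512-56717761 and Ndufaf4 at chr4:24897833-24898082, both on the plus strand of GRCm38.p6.
Ndufa11: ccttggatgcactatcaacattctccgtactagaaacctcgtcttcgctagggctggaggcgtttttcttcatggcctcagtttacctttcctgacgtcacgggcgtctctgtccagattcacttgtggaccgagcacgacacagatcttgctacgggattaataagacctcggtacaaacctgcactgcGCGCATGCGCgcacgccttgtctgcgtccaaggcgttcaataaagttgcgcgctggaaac
Ndufaf4: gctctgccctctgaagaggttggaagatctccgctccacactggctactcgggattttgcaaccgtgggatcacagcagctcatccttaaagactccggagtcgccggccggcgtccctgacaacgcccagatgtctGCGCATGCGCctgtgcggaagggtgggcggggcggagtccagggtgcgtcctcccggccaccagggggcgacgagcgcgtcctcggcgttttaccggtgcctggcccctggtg

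The electron path of the N module begins with Ndufv1, which binds NADH and the flavin. Ndufv1 stood at 236, 195, 171 and 342 CPM in controls 1 to 4 and at 126, 202, 104 and 103 CPM in tumor mice 1 to 4. Tumor library 2 lay above controls 2 and 3, so the groups overlapped, and the log2 fold change of -0.82 ± 0.27 (SE) did not pass (adjusted p = 0.0616, edgeR). It passed without tumor library 2 (adjusted p = 0.0163). Ndufv2, its partner with an iron-sulfur cluster, stood at 206, 188, 179 and 244 CPM in controls and at 119, 127, 110 and 114 CPM in tumor mice. Here the groups did not overlap, and the gene fell 1.74-fold (adjusted p = 0.005, edgeR).

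Ndufs1 encodes the largest iron-sulfur protein of the N module and fell the most of all subunit genes. Its controls were at 271, 234, 231 and 400 CPM and its tumor libraries at 101, 182, 88.0 and 94.7 CPM. Control library 4 and tumor library 2 were the high ones of their groups, and the groups did not overlap. The log2 fold change was -1.28 ± 0.27, a 2.44-fold fall (adjusted p = 0.0123, edgeR), and ranged from -1.62 to -1.06 over the alternative fits.

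Ndufs4 is an accessory subunit of the N module whose loss in mice and people causes a severe encephalopathy. It varied little within groups, with 96.3, 89.4, 95.1 and 97.6 CPM in controls and 60.9, 60.2, 54.3 and 55.5 CPM in tumor mice. The gene, shown above among those with YY1 letters, fell 1.64-fold, with the smallest p of the N module (log2 fold change -0.71 ± 0.10, adjusted p = 0.00355, edgeR). Over the 10 N module genes, 6 fell, and the median change was -0.66 on the log2 scale. Of the others, Ndufa6, Ndufa12 and Ndufv1 were negative but did not pass, and Ndufa7 was not negative.

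Ndufa7, an accessory subunit at the foot of the N module, was the exception among the subunits. It stood at 64.8, 60.0, 53.6 and 52.7 CPM in controls and at 62.3, 56.5, 69.5 and 57.8 CPM in tumor mice, with overlapping groups. The log2 fold change was 0.09 ± 0.12 (adjusted p = 0.623, edgeR), and it lay between 0.01 and 0.15 in the alternative fits. Ndufa3 of the proximal arm and Ndufb1 of the distal arm were the next highest: Ndufb1 had 47.3, 45.7, 45.3 and 42.8 CPM in controls and 37.2, 34.9, 40.1 and 42.9 CPM in tumor mice (log2 fold change -0.22 ± 0.10, adjusted p = 0.159). Tumor library 4 lay among the controls for Ndufb1. For Ndufa3 the values were 78.9, 71.6, 66.0 and 80.5 CPM against 69.2, 69.3, 64.2 and 56.0 CPM, also with overlap (log2 fold change -0.20 ± 0.12, adjusted p = 0.261).

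In the Q module 5 of 6 genes fell (median log2 fold change -0.76), and in all 6 the tumor values lay below the controls. Ndufs8 and Ndufs7 carry the last iron-sulfur clusters before ubiquinone. Ndufs8 stood at 105, 84.7, 74.6 and 130 CPM in controls and at 51.1, 52.6, 41.9 and 35.7 CPM in tumor mice, a 2.17-fold fall (log2 fold change -1.12 ± 0.20, adjusted p = 0.00662, edgeR). Ndufs7 stood at 162, 148, 129 and 186 CPM against 97.8, 104, 84.3 and 83.5 CPM, a 1.69-fold fall (adjusted p = 0.00848). Control library 4 was the highest control for both genes.

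Ndufs3, an early scaffold of the module, had 144, 125, 126 and 156 CPM in controls and 103, 103, 95.9 and 95.9 CPM in tumor mice, a 1.39-fold fall (adjusted p = 0.0206, edgeR). Leaving out control library 1 or tumor library 3 raised its adjusted p to 0.0727 and 0.0734. Ndufa5, the accessory subunit with the smallest p of the module, had 120, 119, 107 and 149 CPM in controls and 76.2, 78.1, 69.8 and 66.4 CPM in tumor mice, a 1.70-fold fall (adjusted p = 0.0058).

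Split by catalytic role, 5 of the 7 nuclear core genes fell (median log2 fold change -0.80), and 21 of the 30 accessory genes fell (median -0.77). The difference between these groups was not tested.

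The membrane arm changed in the same direction as the matrix arm. In the proximal part 5 of 9 genes fell (median log2 fold change -0.78), and in the distal part 10 of 12 fell (median -0.82). The distal count was 5 without tumor library 3 and 7 without control library 1, and the N and Q module counts without those libraries were 4 and 3. Of all tested genes, 3.36% and 3.35% fell in those fits. Ndufa1, Ndufa3, Ndufa10 and Ndufs5 of the proximal part and Ndufb1 and Ndufb11 of the distal part did not pass.

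Ndufc1, a small membrane protein next to the mitochondrially encoded ND2, had the smallest p of all members. Its controls were at 68.6, 58.9, 63.9 and 58.3 CPM and its tumor libraries at 31.5, 25.5, 23.9 and 22.5 CPM. The groups were far apart, and control library 4 was the lowest control, unlike for most subunits. The fall was 2.42-fold (log2 fold change -1.27 ± 0.13, adjusted p = 0.00217, edgeR).

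Ndufb8, an accessory subunit, had the smallest p of the distal part. It stood at 219, 197, 186 and 256 CPM in controls and at 121, 118, 103 and 90.2 CPM in tumor mice, a 1.98-fold fall (adjusted p = 0.00403, edgeR). Ndufab1 is the mitochondrial acyl carrier protein, which sits in the enzyme at more than 1 place and also serves fatty acid and lipoate synthesis. It stood at 121, 109, 97.4 and 146 CPM against 61.5, 69.7, 50.2 and 59.0 CPM, a 1.97-fold fall (adjusted p = 0.00484). Neither gene's groups overlapped. Its pseudogene Ndufab1-ps, like Ndufb4c, Ndufa12-ps and Ndufs5-ps, had counts that were not whole, as arises when reads that match several genes are divided by estimate, so these values are less certain. None of these 4 copies passed, with log2 fold changes from -1.20 for Ndufab1-ps to -0.32 for Ndufs5-ps. Counts that were not whole also occurred for Ndufab1 itself and for other members, among them Ndufb9, Ndufa13, Ndufs3 and Ndufaf6. The same limit holds for those genes.

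**Figure D3:**
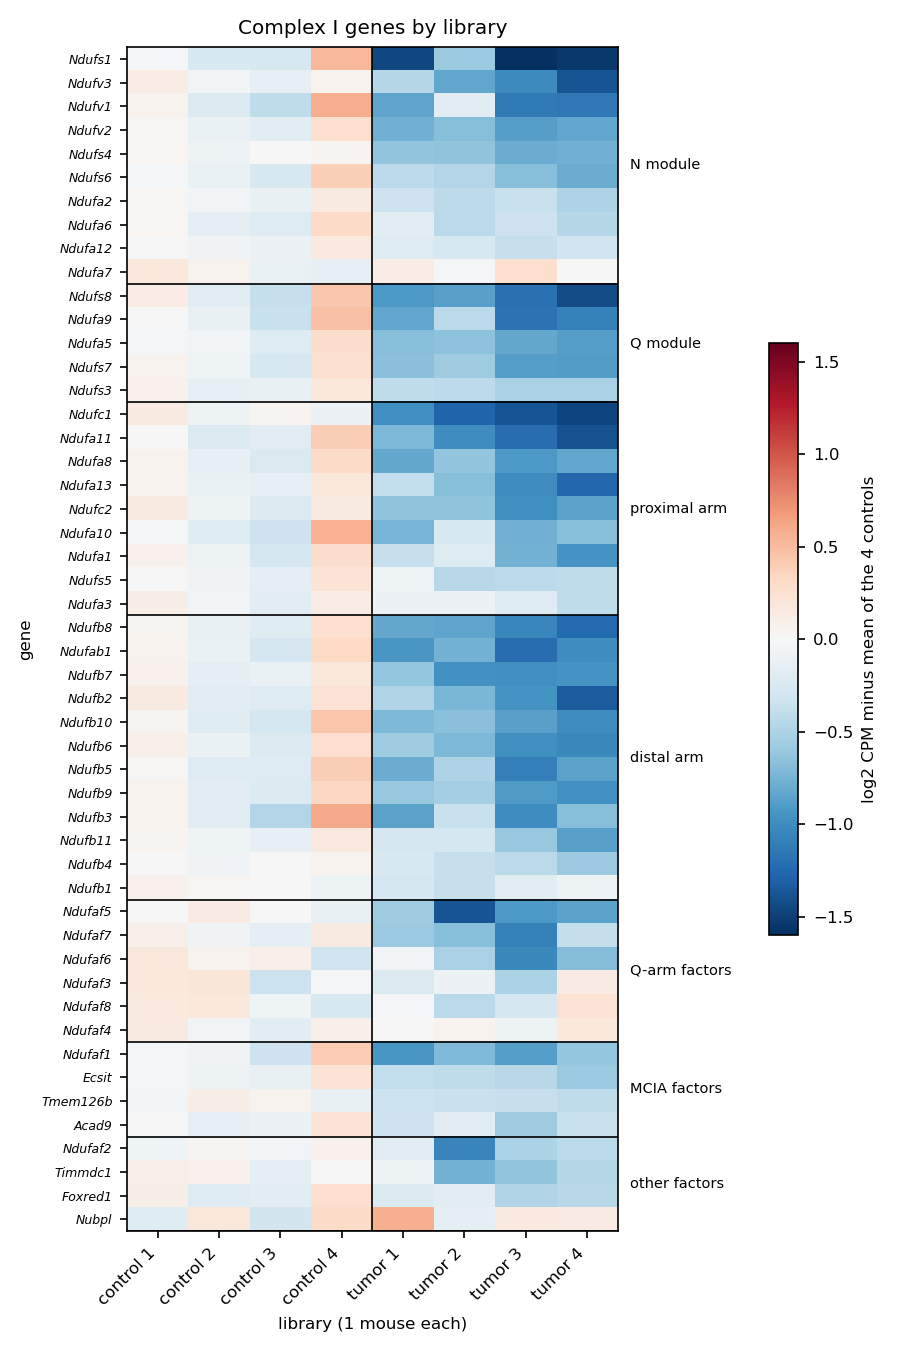
Each row is a gene (1 subunit gene is not shown), each column a library, and colour gives the log2 CPM minus the mean of the 4 controls, blue for lower. Tumor columns are blue for nearly all subunits, though only pale for some, such as Ndufa3 and Ndufb1, and control library 4 is red for most subunits. The rows of Ndufa7, Ndufaf3, Ndufaf4, Ndufaf8 and Nubpl stay pale or mixed.

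The assembly factors were grouped by the step they serve, and differences among these groups were not tested. Ndufaf1, Ecsit, Acad9 and Tmem126b form the mitochondrial complex I assembly (MCIA) complex, which builds the membrane arm around ND2. Of these 4 genes 3 fell, and in all 4 the tumor values lay below the controls. The count was 1 without control library 1 or 2 or tumor library 3, where 3.35%, 4.28% and 3.36% of all tested genes fell. Ndufaf1 stood at 22.8, 22.4, 18.5 and 30.8 CPM in controls and at 12.1, 14.2, 12.5 and 15.2 CPM in tumor mice, a 1.75-fold fall (log2 fold change -0.80 ± 0.16, adjusted p = 0.0109, edgeR).

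Ecsit, which also takes part in innate immune signalling, stood at 72.1, 68.9, 66.8 and 84.6 CPM against 55.5, 55.1, 53.7 and 48.4 CPM, a 1.37-fold fall (adjusted p = 0.0227, edgeR). Tmem126b, a membrane protein of the same complex, was nearly constant within groups, at 27.3, 30.0, 29.2 and 25.8 CPM against 22.0, 21.9, 21.7 and 21.2 CPM, a 1.29-fold fall (adjusted p = 0.0273). Neither call held in every left-out fit: Ecsit missed the threshold when control 1, control 2 or tumor 3 was absent (adjusted p up to 0.0691), and Tmem126b when any of controls 1 to 3 or tumor 3 was (up to 0.0911). Acad9, an acyl-CoA dehydrogenase relative that acts as an assembly factor, was at -0.36 ± 0.13 on the log2 scale (adjusted p = 0.072).

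Among the 6 factors of the Q module, Ndufaf5 and Ndufaf7 fell; both modify core subunits, Ndufaf5 by hydroxylating and Ndufaf7 by methylating an arginine. Ndufaf5 had the largest change of all assembly factors, from 17.7, 19.4, 17.7 and 16.3 CPM in controls to 11.9, 6.75, 9.38 and 9.73 CPM in tumor mice (log2 fold change -0.91 ± 0.17, a 1.88-fold fall, adjusted p = 0.00778, edgeR). Its lowest value was in tumor library 2, where most subunits were not at their lowest. Ndufaf7 stood at 15.2, 13.8, 12.9 and 15.9 CPM against 9.55, 8.93, 6.78 and 11.0 CPM, a 1.59-fold fall (adjusted p = 0.0194), and leaving out control library 1 raised the adjusted p to 0.0648.

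Ndufaf3 and Ndufaf4, which bind each other on the early Q module, had log2 fold changes of -0.17 ± 0.18 and 0.04 ± 0.11 and overlapping groups. For Ndufaf8, the partner of Ndufaf5, the value was -0.11 ± 0.18 (adjusted p = 0.702, edgeR). Ndufaf6 did not pass either (-0.55 ± 0.21, adjusted p = 0.0962), but it did without tumor library 1 (adjusted p = 0.0234).

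None of the 4 factors of other steps passed. For Timmdc1, which helps to build the part around ND1, edgeR gave -0.46 ± 0.15 on the log2 scale (adjusted p = 0.0607). For Ndufaf2, which acts when the N module is joined on, it was -0.51 ± 0.19 (adjusted p = 0.0824), and for Foxred1 -0.34 ± 0.14 (adjusted p = 0.126). Nubpl, which delivers iron-sulfur clusters to the enzyme, had the highest value of all members, 0.18 ± 0.22 (adjusted p = 0.588). Without tumor library 1, Timmdc1 passed (adjusted p = 0.0125) and so did Ndufaf2 (adjusted p = 0.0418).

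The level of subunit and assembly factor transcripts was described too, without a test. For each gene 1 transcript of GENCODE release M21 was matched by symbol: the longest tagged as principal, or else the longest protein-coding one. Divided by its length in kilobases, the control level had a median of 137.7 CPM per kilobase over 36 matched subunit genes and of 11.5 over the 14 assembly factor genes. The most abundant subunit transcript by this measure was that of Ndufb9, at 431.8, and the most abundant factor that of Ecsit, at 43.6. These lengths come from an annotation of a different genome build than the counts, and 1 transcript was used per gene, so the values are approximate.

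Ndufa4 and Ndufa4l2 carry the family name, but Ndufa4 is now placed in cytochrome c oxidase and Ndufa4l2 is its hypoxia-induced paralog. Ndufa4 stood at 271, 242, 237 and 289 CPM in controls and at 158, 186, 145 and 141 CPM in tumor mice, a 1.65-fold fall (adjusted p = 0.008, edgeR). Ndufa4l2 was low, at 3.86, 3.28, 3.27 and 7.64 CPM against 1.65, 2.66, 2.60 and 2.10 CPM. Its groups did not overlap, but the difference did not pass (adjusted p = 0.0542).

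The level of the whole set varied among mice of a group as well as between groups. The mean log2 CPM of the 37 subunit genes was 7.02, 6.86, 6.78 and 7.23 in controls 1 to 4 and 6.40, 6.43, 6.16 and 6.10 in tumor mice 1 to 4. The lowest control lay above the highest tumor library, and the group means were 6.97 ± 0.20 and 6.27 ± 0.17 (SD, n = 4). For the 14 assembly factor genes the means were 4.15, 4.13, 3.98 and 4.17 in controls and 3.87, 3.62, 3.56 and 3.78 in tumor mice. Relative to the control mean, the subunits were lower by 0.54 to 0.87 and the factors by 0.24 to 0.54 in the tumor libraries on the log2 scale. No test was made on these means, because the members were chosen with earlier results known.

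Control library 4 held the highest control value for 33 of the 37 subunit genes and control library 3 the lowest for 27. In the tumor group, library 4 held the lowest value for 22 subunit genes, and libraries 1 and 2 the highest for 17 and 18. Scaling bears on library 4: its normalisation factor was 1.22, against 0.896 to 1.02 in the other libraries, and as a share of its unscaled counts the subunit genes made up 0.362% there and 0.311% to 0.370% in the other tumor libraries. In controls that share was 0.448% to 0.602%, so the groups did not overlap without scaling. For the assembly factor genes the unscaled share was 0.0270% to 0.0318% in controls and 0.0218% to 0.0289% in tumor mice, and there the groups overlapped, with tumor library 4 above control library 3.

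**Figure D4:**
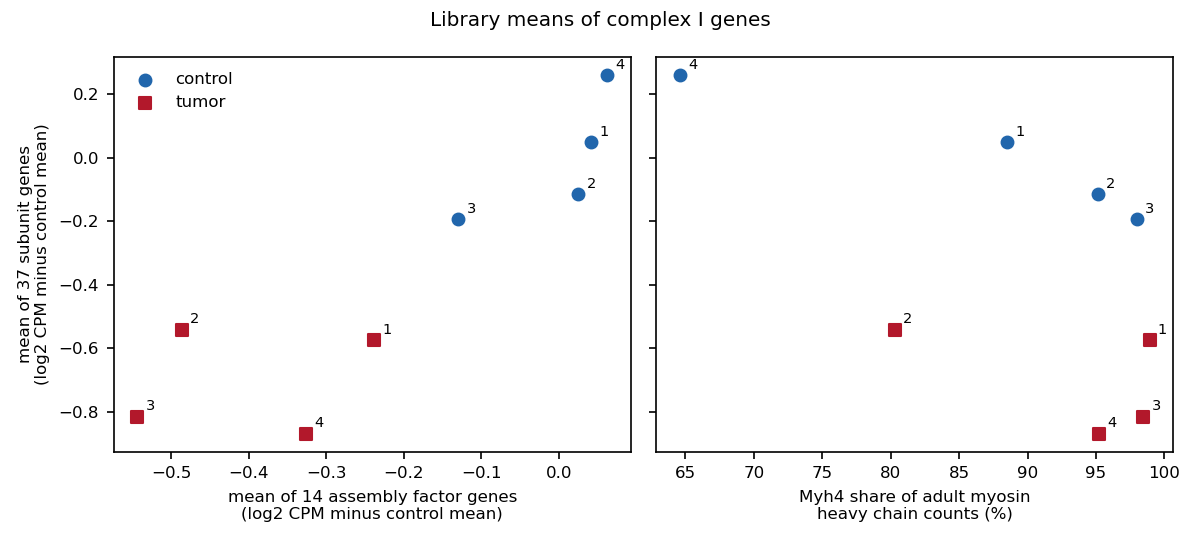
Each point is a library, blue circles for control and red squares for tumor, numbered by mouse; the vertical axis is the mean log2 CPM of the 37 subunit genes minus its mean in the controls, and the horizontal axes are the same for the 14 assembly factor genes (left) and the Myh4 share of adult myosin heavy chain counts (right). The subunit mean of every tumor library lies below that of every control, and the Myh4 shares of the groups overlap.

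Fibre makeup differed among mice of both groups. The Myh4 share of the counts of Myh1, Myh2, Myh4 and Myh7 was 88.5%, 95.1%, 98.0% and 64.6% in controls 1 to 4 and 98.9%, 80.3%, 98.5% and 95.2% in tumor mice, with no difference between groups shown (two-sided exact permutation p = 0.486, where the smallest possible is 0.0286). All 6 markers of slow fibres (Myh7, Tnnc1, Tnnt1, Tnni1, Myl3 and Myl2) were called lower in tumor mice, but this rested on single libraries. Leaving out tumor 3 gave 0 of 6; leaving out control 1, tumor 1 or tumor 4 gave 1; leaving out control 4 or tumor 2 gave 2; and 5 and 6 passed when control 2 or control 3 was absent. In these fits the share of all tested genes called lower ran from 3.35% to 10.1%. The summed level of the 6 markers was 304, 40.1, 4.02 and 4303 CPM in controls and 0.89 to 18.2 CPM in tumor mice. Among controls, the summed markers and the subunit mean were both lowest in library 3 (4.02 CPM and 6.78 log2 CPM). Both were highest in library 4 (4303 CPM and 7.23 log2 CPM). The summed markers of control library 3 lay within the tumor range, and the tumor subunit means were 6.10 to 6.43 log2 CPM. With the log2 ratio of Myh4 to the other 3 myosins as a covariate, 28 subunit and 6 assembly factor genes fell, as did 9.82% of all tested genes. The subunit median in that fit was -0.66, and the part of fibre makeup in the fall was not tested.

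Of the endothelial markers 2 of 4, Kdr and Tek, also fell. With 1 library left out the count ran from 1 to 3, and the share of all tested genes from 3.35% to 10.1%. Tek missed the threshold without control library 1 or tumor library 3 (adjusted p up to 0.0799, edgeR). The summed level of the list was 115 to 178 CPM in controls and 58.7 to 104 CPM in tumor mice. The fibro-adipogenic list had 1 of 4 lower, and its summed level was 247 to 322 CPM in controls and 157 to 280 CPM in tumor mice. No marker of adipocytes, macrophages, satellite cells, red blood cells or Schwann cells was called by edgeR, and of these Cd68 of macrophages alone had an unadjusted p under 0.05 (adjusted p = 0.0961). The part of these cells and of fibre makeup in the complex I result was not tested.

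Other genes of complex I and of its partners were read from lists by function, which, like the members, were chosen with earlier results of these data known. The 7 complex I genes of the mitochondrial genome all had negative log2 fold changes (median -0.68), but 1 of 7 passed, mt-Nd3 (-0.99 ± 0.30, adjusted p = 0.0466, edgeR). Its call held in 1 of 8 left-out fits. Tumor library 2 lay at 847 CPM for mt-Nd3, above the lowest control at 824 CPM, and mitochondrial transcripts were high in control library 4.

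Of 7 further assembly factors, 3 fell, with a median of -0.35; these were Tmem126a (1.47-fold), Tmem70 (1.43-fold), which also serves ATP synthase, and Dmac2 (1.81-fold, named after its value was seen). Leaving out control library 1 gave 0 of these (3.35% of all tested genes fell there). Leaving out control library 2 or tumor library 3 gave 1 (4.28% and 3.36%). Iron-sulfur cluster assembly genes had a median of -0.01, with 3 of 15 lower, among them Isca1 (1.56-fold) and Glrx5 (1.40-fold), the latter lost in 4 of 8 left-out fits. Of 13 genes of ubiquinone synthesis 4 fell, with a median of -0.43. Coq7, a hydroxylase of that pathway, fell 3.08-fold and Pdss2, which makes the side chain, 1.81-fold. The ranges over left-out fits were 1 to 4 genes for the cluster list and 2 to 5 for ubiquinone. The share of all tested genes called lower ran from 3.35% to 10.1% in those fits.

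Complexes II to V gave a similar pair of values for subunits and assembly factors. Of 42 subunit genes 32 fell (median log2 fold change -0.78), among them the ATP synthase genes Atp5j (2.09-fold) and Atp5j2 (1.99-fold). Of 34 assembly factor genes 9 fell and 0 rose, with a median of -0.28; Taco1, a translational activator for cytochrome c oxidase, fell 2.73-fold and Bcs1l, a factor of complex III, 1.88-fold. Left-out fits gave 16 (without tumor library 3) to 38 (without tumor library 2) lower subunit genes. They gave 4 (without control library 1 or tumor library 3) to 13 (without tumor library 1) lower assembly factor genes. Of all tested genes, 3.36% fell without tumor library 3, 10.1% without tumor 2, 3.35% without control 1 and 8.99% without tumor 1. Whether complex I differed from the other complexes was not tested.

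**Figure D5:**
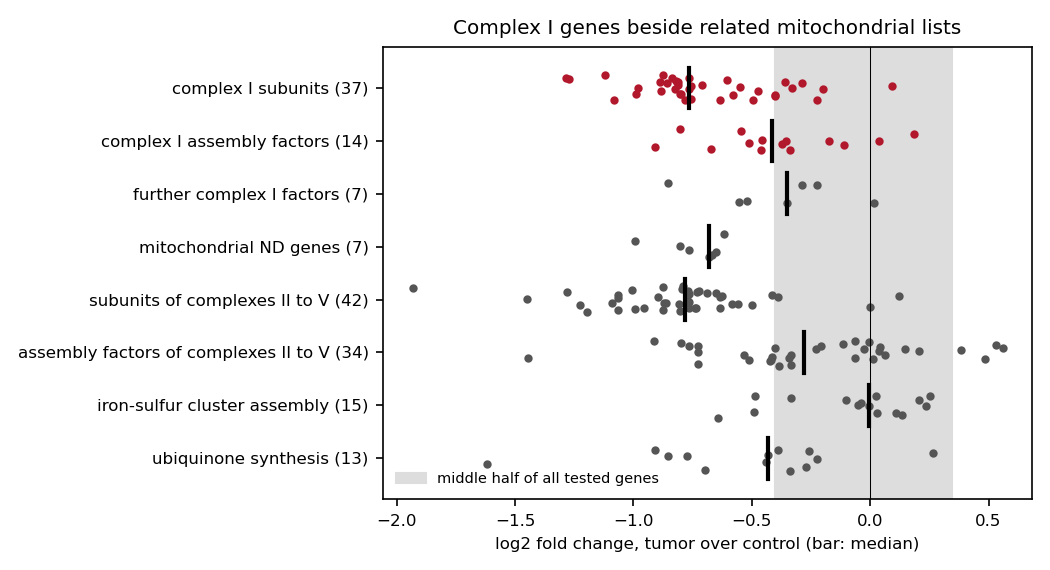
Points are genes, the horizontal axis is the log2 fold change of tumor over control, black bars are list medians and the grey band holds the middle part of all tested genes, between their quartiles. The medians of the subunit lists, -0.77 (complex I) and -0.78 (the other complexes), lie left of those of the assembly factor lists, -0.42 and -0.28, and iron-sulfur cluster assembly is centred at -0.01.

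Of 13 regulators of respiratory genes, 3 fell and 0 rose (median log2 fold change -0.42). With 1 library left out, 1 (without tumor library 3, where 3.36% of all tested genes fell) to 4 (without tumor library 2, 10.1%) fell. The median ran from -0.48 to -0.20 over the left-out fits, and Nrf1 rose in the fit without tumor library 1 (adjusted p = 0.0182, edgeR). Esrra, a nuclear receptor that drives many respiratory genes, stood at 98.7, 82.4, 77.6 and 126 CPM in controls and at 45.4, 45.2, 36.1 and 35.5 CPM in tumor mice, a 2.37-fold fall (adjusted p = 0.00358, edgeR). Perm1, a muscle protein that works with it, fell 4.57-fold (adjusted p = 0.0164), a call lost without tumor library 3 (adjusted p = 0.0582). The third, Ppargc1b, was named after its value was seen (2.09-fold lower, adjusted p = 0.0293), and its call was lost in 5 of 8 left-out fits.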

How the data were processed

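The authors deposited 1 table of estimated counts per gene symbol, with 9.0% of values fractional. Mouse build GRCm39 and the programs Salmon 1.10.1, STAR 2.7.9a, Trim Galore 0.6.7, cutadapt 3.4 and R 4.2.2 are listed per the submitters' processing notes; what each did, the annotation and the strand setting are not stated there. Estimated counts were rounded, genes were kept by filterByExpr (minimum count 10), which left 14070 genes, and libraries were scaled by TMM. Tumor and control libraries were compared in edgeR 4.0.16 (R 4.3.3) by the quasi-likelihood F test, two-sided, with group as the only term, with Benjamini-Hochberg adjustment across the tested genes (threshold 0.05). The common biological coefficient of variation came to 30.1%. Each standard error is the log2 fold change over the root of F; CPM are scaled by TMM, and library means of log2 CPM used a prior count of 2. The steps were tested on simulated data.

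Members, gene lists and tests were chosen with earlier results of these data known, and the promoter letters after the files were read. Values in every library are given for the core subunits, the smallest p of each of the 4 modules, the 3 lowest and 3 highest subunits by log2 fold change, assembly factors that passed, and Ndufa4, Ndufa4l2 and Ndufab1; of other lists, up to 2 called genes with the smallest p are named. Alternatives covered scaling, count filter, DESeq2 1.42.0, limma-voom (limma 3.58.1), left-out libraries, the replicate number as a block and a fibre covariate. Within each group, libraries varied beyond counting error, so all were kept as separate samples. Nothing says that replicates share a batch. Counts set a precision that differs by gene: the least counted assembly factor, Nubpl, had 1151 counts over the 8 libraries. The values of 1 core subunit are not reported here.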

Additional observations from a re-analysis of the deposited data

Results flagged for a closer look

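In 2 of 52 groups of 4 values, 1 library stood apart from the other 3 past Dixon's 95% critical value, which chance passes in about 1 of 20 groups. Ndufa4l2 was at 7.64 CPM in control library 4, high against the other controls. Ndufs1 was at 182 CPM in tumor library 2, high against the other tumor mice. These libraries also had the lowest Myh4 shares of their groups; its part in these values was not tested.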

How the results depend on the processing

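The count of changed genes over the whole table was 2781 (1552 higher and 1229 lower) and ran from 1110 to 2845 with 1 library left out; upper quartile scaling gave 1169 higher and 1547 lower. The number of complex I subunits called lower was 26 and ran from 16 to 31 in the left-out fits, and that of assembly factors was 5 and ran from 2 to 8. The share of all tested genes called lower ran from 3.35% to 10.1% in those fits. Without control library 4 and tumor library 2 together, 2922 genes changed, and 28 subunits, 4 assembly factors and 10.1% of all tested genes were lower. In the counts that follow, brackets hold the share of all tested genes called lower, which was 8.73% in the main fit. Subunit counts were 27 with DESeq2 size factors (8.86%), 32 with upper quartile scaling (11%) and 25 without a count filter (4.35%). A strict filter, of 1 CPM or more in all 4 libraries of either group and 50 counts on average, gave 31 (12.3%). The count was 32 by the DESeq2 test (12.5%) and 28 by limma-voom (9.15%). It was 27 of 43 when paralogs, pseudogenes, Ndufa4 and Ndufa4l2 were added to the main fit's subunits. In each of these fits 36 of the 37 subunits had a negative log2 fold change and no assembly factor was called higher. Samples of the 2 groups share only a replicate number. The correlations of same-numbered libraries were 0.028, 0.131, 0.197 and 0.016, and those of differently numbered ones ran from -0.311 to 0.148. Not every library correlated best with its own number. With the replicate number as a block, 3 assembly factors, 21 subunits and 6.52% of all tested genes were lower. The difference in Myh4 share, tumor minus control, was 6.68 percentage points and ran from -0.65 (without control library 4) to 11.0 (without tumor library 2) in the left-out sets. Depth limits the rarest members, such as Ndufab1-ps with 125.9 counts in all 8 libraries.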
